A study of Mus musculus with 18 samples.

Results

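The lung mesenchyme transcription factors described here are Tcf21, Tbx2, Tbx4, Tbx5, Foxf1, Meox2, Hoxa5, Twist1, Twist2 and Gli1. They were taken by gene symbol, as every probe set whose only symbol was one of these 10 names, which gave 16 of the 45101 probe sets on the array and 10 of the 18193 genes tested. The probe set with the highest mean stood for its gene, and the others served as a check. The arrays measured RNA from lungs and lung tumors of B6C3F1/N mice, a cross of a pair of inbred strains. The mice were 5 to 6 weeks old when exposure began, and exposure by whole-body inhalation lasted up to 105 weeks, at 0, 3, 10 or 30 mg of antimony trioxide per cubic metre of air. The control group was lung of vehicle controls, the spontaneous group was lung tumors labelled spontaneous, and the treated group was lung tumors labelled antimony treated; selected tumors were cut away from the remaining lung and frozen. The labels name no transgene or engineered allele. The sex, animal and exposure level of each sample are not given there, so the p-values cover only the variation among these samples, which may be technical.

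Mesenchyme is the connective tissue, muscle and supporting layer beneath an epithelium. In the developing lung it receives Hedgehog protein from the epithelium and returns growth factors that make the airways branch. The factors described here are known from mouse genetics as regulators of that layer: Tcf21 marks lipofibroblasts and their precursors, the T-box genes control branching and tracheal cartilage, Foxf1 acts in both mesenchyme and lung capillaries, and Gli1 is a direct target of Hedgehog signalling. Bulk RNA does not show which cells made a transcript, so the names of the genes are no proof of their source here. Fewer cells of a type and less RNA per cell cannot be told apart.

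Each group had 6 arrays. Control 5, spontaneous 5 and spontaneous 6 were left out, as the rule for choosing these genes asks, because they stood apart. Their median correlation with the other arrays was 0.259 to 0.442, against 0.912 to 0.97 on the 15 arrays kept, which were 5 control, 4 spontaneous and 6 treated arrays. The bacterial hybridization control bioB read 13.23 to 13.89 log2 on the 3 arrays. It read 10.65 to 11.24 on the kept control arrays, 10.19 to 10.49 on the spontaneous and 10.24 to 10.62 on the treated ones, and its part in any result was not tested. Alveolar type 2 cell markers, 7 of 8 of them measured, averaged 12.45 ± 0.36 log2 in control lung, 13.48 ± 0.07 in spontaneous and 13.36 ± 0.06 in treated tumors (SD over 5, 4 and 6 arrays). All 3 groups thus carried markers of this 1 type of lung epithelial cell. Levels are log2 values made by the submitters with RMA. A difference is a log2 fold change ± its standard error from limma, and a gene rose or fell where the p-value adjusted over all 18193 genes was under 0.05. A value in square brackets is the same difference over all 18 arrays. Levels of different genes come from different probes and were not compared with each other.

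The sequences before the start sites of 4 factors that fell in 1 or both tumor groups are given first. Promoters are among the places where bHLH, T-box, forkhead and homeobox proteins can bind. The part of these sequences in the falls was not tested. The promoter table of RefSeq, on mouse build GRCm38.p6, held entries for 6 of the 10 genes: Tcf21, Hoxa5, Meox2, Tbx4, Twist1 and Twist2. Each sequence is the 250 bases before the start, on the gene's own strand from 5′ to 3′, and capitals mark the E-box CANNTG, the site of bHLH proteins such as Tcf21 and Twist1. The Tcf21 sequence is at chr10:22820144-22820393 (minus strand), that of Hoxa5 at chr6:52204588-52204837 (minus), that of Meox2 at chr12:37108290-37108539 (plus) and that of Tbx4 at chr11:85896515-85896764 (plus). The Tbx4 start in this table lies 10398 bases inside the gene's outer boundary.
Tcf21: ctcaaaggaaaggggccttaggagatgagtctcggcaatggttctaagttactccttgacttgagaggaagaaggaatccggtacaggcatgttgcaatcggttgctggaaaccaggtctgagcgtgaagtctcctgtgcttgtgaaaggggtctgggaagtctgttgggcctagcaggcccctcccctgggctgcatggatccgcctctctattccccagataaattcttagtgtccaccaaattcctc
Hoxa5: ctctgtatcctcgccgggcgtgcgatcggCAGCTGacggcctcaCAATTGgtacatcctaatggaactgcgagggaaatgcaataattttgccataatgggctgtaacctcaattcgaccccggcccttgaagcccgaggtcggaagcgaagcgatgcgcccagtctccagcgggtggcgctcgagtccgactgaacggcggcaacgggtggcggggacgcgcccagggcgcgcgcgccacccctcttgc
Meox2: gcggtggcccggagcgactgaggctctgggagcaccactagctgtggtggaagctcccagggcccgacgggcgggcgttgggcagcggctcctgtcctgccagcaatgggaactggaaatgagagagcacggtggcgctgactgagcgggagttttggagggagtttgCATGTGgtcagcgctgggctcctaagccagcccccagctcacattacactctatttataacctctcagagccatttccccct
Tbx4: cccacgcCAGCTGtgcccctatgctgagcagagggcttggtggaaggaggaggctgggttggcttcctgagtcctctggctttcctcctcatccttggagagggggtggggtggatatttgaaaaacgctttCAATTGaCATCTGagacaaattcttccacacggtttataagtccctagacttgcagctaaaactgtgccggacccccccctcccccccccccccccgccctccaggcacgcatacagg
The Tbx4 sequence held 3 E-boxes, that of Hoxa5 2, that of Meox2 1 and those of Tcf21, Twist1 and Twist2 0. Of 32851 promoter entries in the table, 66.2% held at least 1. The T-box half-site GGTGTGA, the forkhead core TGTTTAC, the homeodomain core TAATTA and the GLI site GACCACCCA, searched on both strands and without overlap with an E-box here, had 0 matches in all 6 sequences. They occur in 3.33%, 3.17%, 4.84% and 0.225% of the entries. The sequences held 5 (Tcf21), 6 (Tbx4), 12 (Meox2), 18 (Twist1), 23 (Twist2) and 28 (Hoxa5) CpG dinucleotides, with a median of 6 over all entries. These are matches of letters and do not show binding.

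Most of these factors were lower in both kinds of tumor than in control lung. Against control, 7 of 10 fell in spontaneous tumors and 8 of 10 in treated tumors, where 12.9% and 15% of all genes fell. Over all 18 arrays 4 and 5 fell, where 3.19% and 4.44% of all genes did. Twist1 rose in both comparisons over 15 arrays, where 20.1% and 23.8% of all genes rose. Over 18 arrays 0 of the 10 rose by limma, and 0.973% and 2.98% of all genes did. The median difference of the 10 genes was -1.51 in spontaneous and -1.86 in treated tumors, against 0.12 and 0.09 over all genes. For 7 of the 10 (Tcf21, Foxf1, Meox2, Hoxa5, Tbx2, Tbx5 and Twist2) all 10 tumor arrays lay below all 5 control arrays, a pattern that 7.82% of all genes showed. Both comparisons use the same control arrays and are therefore not independent.

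**Figure D1:**
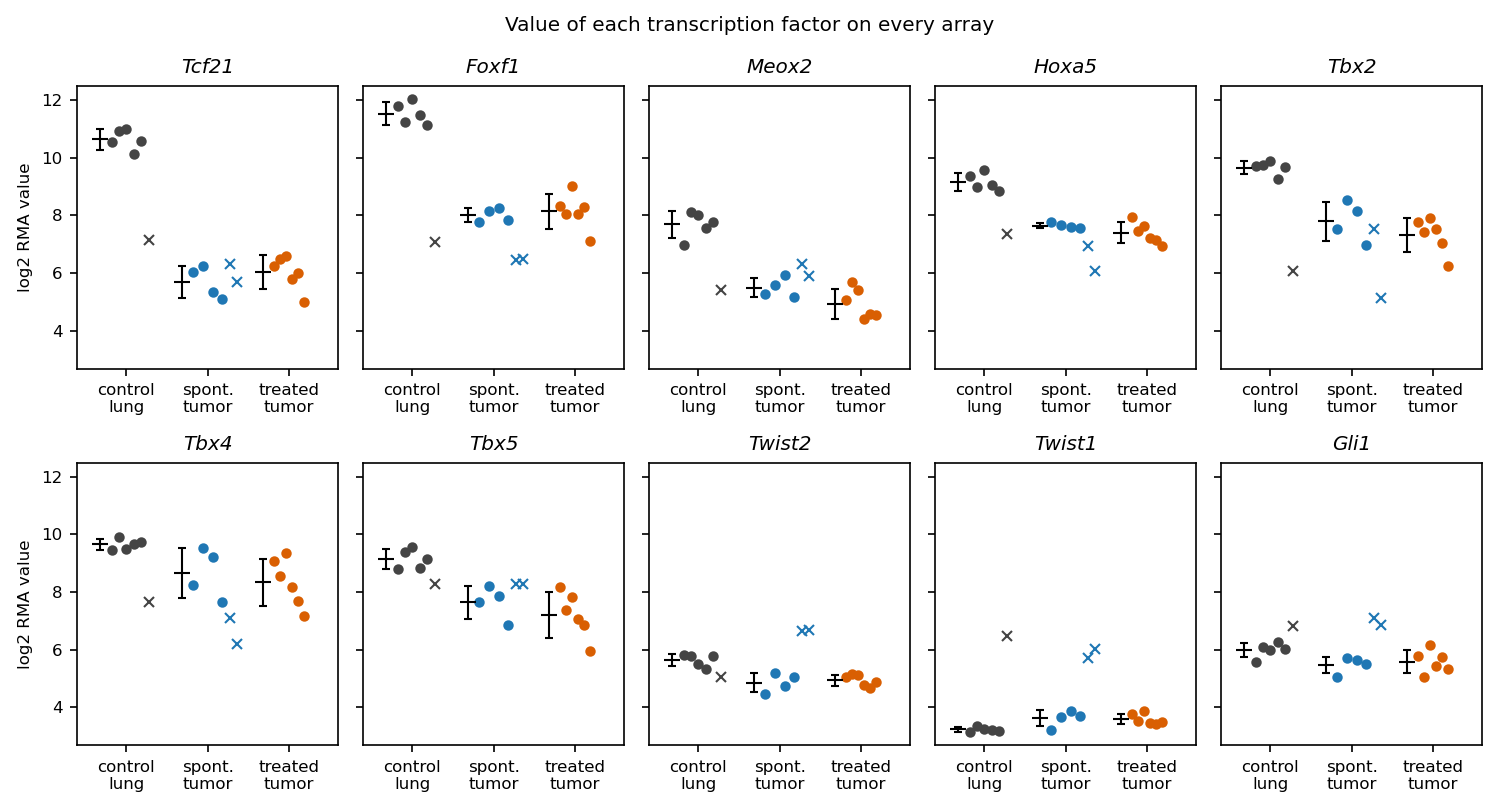
Log2 RMA value of each factor (1 panel per gene) on every array, by group; circles are the 15 arrays kept, crosses the 3 left out, and the bar beside each group is its mean ± SD over the arrays kept. Tcf21 and Foxf1 tumor values lie well below control values, those of Tbx4 and Gli1 overlap them, and Twist1 stays between 3.13 and 3.86 on the arrays kept.

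Tcf21, a bHLH factor needed for lung, kidney and spleen mesenchyme, lies on chromosome 10 (22817263 to 22820143). It read 10.55, 10.94, 11.01, 10.13 and 10.57 on the 5 control arrays. On the 4 spontaneous tumor arrays it read 6.05, 6.26, 5.35 and 5.11, and the 6 treated tumors ranged from 4.99 to 6.59 with a mean of 6.02 ± 0.59 (SD). The lowest control value stood 3.54 log2 above the highest tumor value, and the groups did not overlap. Tcf21 fell by 4.95 ± 0.32 log2 in spontaneous tumors, a 30.8-fold lower level (95% interval 19.4 to 49.1, adjusted p = 9.7e-08 [-4.26, adjusted p = 1.7e-04]). In treated tumors it fell by 4.62 ± 0.28, or 24.6-fold (16.1 to 37.4, adjusted p = 3.1e-08 [-4.04, adjusted p = 8.9e-05]). Only 23 genes of the 18193 had a larger fall in spontaneous tumors and 44 in treated ones. The second Tcf21 probe set read 4.69 to 5.43 in control lung and 3.20 to 3.84 in the tumors, also without overlap. It gave smaller differences of -1.28 ± 0.16 and -1.56 ± 0.15 log2.

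Twist1 and Twist2 are bHLH repressors of mesenchyme and bone, and both had low readings in these lungs. Twist2, on chromosome 1 (91801461 to 91848034), read 5.31 to 5.82 in control lung, 4.46 to 5.20 in spontaneous and 4.65 to 5.14 in treated tumors. It fell by 0.78 ± 0.16 log2 in spontaneous tumors (1.72-fold, adjusted p = 0.00192 [-0.09, adjusted p = 0.942]) and fell by 0.70 ± 0.15 in treated tumors (1.63-fold, adjusted p = 0.0015 [-0.61, adjusted p = 0.406]). The gap between the lowest control and the highest tumor value was 0.10 log2. Neither fall was called over 18 arrays, where the left-out spontaneous tumors read 6.64 and 6.67 for Twist2.

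Twist1, on chromosome 12 (33957671 to 33959831), read 3.13 to 3.36 in control lung. It read 3.22, 3.67, 3.86 and 3.70 in the spontaneous tumors and 3.41 to 3.86 in the treated ones. It rose by 0.39 ± 0.13 log2 in spontaneous tumors (1.31-fold, adjusted p = 0.036 [0.60, adjusted p = 0.737]), where 1 tumor value lay inside the control range. In treated tumors it rose by 0.36 ± 0.12 (1.28-fold, adjusted p = 0.0282 [-0.18, adjusted p = 0.86]), without overlap, as for 14.4% of all genes. The call in spontaneous tumors ended without control 1, 3, 4 or 6 or spontaneous 2, 3 or 4, with adjusted p from 0.06 to 0.118. The call in treated tumors ended without control 1, 3, 4 or 6 or treated 1 or 3, with adjusted p from 0.0502 to 0.0666. On the 3 left-out arrays Twist1 read 5.71 to 6.46. Its means over the arrays kept exceeded those of only 4.88% (control), 6.75% (spontaneous) and 6.71% (treated) of the probe sets with 1 gene symbol. Whether values this low differ from background signal was not tested.

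bHLH proteins bind DNA as pairs with broadly expressed E proteins, and Id proteins block the pairing. Of the 7 E protein and Id genes listed, 3 fell and 2 rose in each tumor group, with medians of -0.03 and 0.0010 log2. Among all genes 12.9% and 15% fell, and 20.1% and 23.8% rose. The E protein gene Tcf4 fell, at -1.10 ± 0.26 [-1.59, adjusted p = 0.138] and -1.35 ± 0.24 [-0.97, adjusted p = 0.376] log2 (adjusted p = 0.00506 and 4.1e-04). Id2 rose by 2.43 ± 0.31 [1.94, adjusted p = 0.0777] and 2.55 ± 0.28 [2.90, adjusted p = 0.00379], and Id4 fell, at -1.78 ± 0.33 [-1.42, adjusted p = 0.0262] and -2.13 ± 0.30 [-2.06, adjusted p = 9.8e-04].

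Foxf1, a forkhead factor of lung mesenchyme and capillary endothelium, lies on chromosome 8 (121084386 to 121088154). It read 11.80, 11.23, 12.05, 11.48 and 11.14 in control lung. The spontaneous tumors read 7.76, 8.16, 8.27 and 7.83, and the treated tumors ranged from 7.13 to 9.01, so that tumors and controls were separated by at least 2.13 log2. Foxf1 fell by 3.54 ± 0.29 log2 in spontaneous tumors (11.6-fold, 95% interval 7.58 to 17.8, adjusted p = 6.2e-07 [-3.30, adjusted p = 0.00554]). It fell by 3.40 ± 0.26 in treated tumors (10.6-fold, 7.2 to 15.5, adjusted p = 1.8e-07 [-2.66, adjusted p = 0.0151]). The other probe set of Foxf1 gave differences of -3.15 ± 0.25 and -3.28 ± 0.23, also without overlap.

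The nearest measured gene beside Foxf1 is Fendrr, a long noncoding RNA whose gene lies 1275 bases away and which in the mouse embryo is needed in heart and body wall mesoderm. Fendrr read 9.02 to 10.70 in control lung, 5.88 to 6.18 in spontaneous and 5.67 to 6.64 in treated tumors, without overlap. It fell, at -3.94 ± 0.31 [-3.10] and -3.92 ± 0.28 [-3.45] log2 (adjusted p = 4.6e-07 [0.00108] and 9.2e-08 [2.1e-04]). Mthfsd, 3473 bases from Foxf1 on its other side, had 0.28 ± 0.18 and 0.22 ± 0.16 and did not pass the test (adjusted p = 0.243 and 0.304). For Tcf21, neither neighbour passed: Tbpl1 had -0.06 ± 0.09 and -0.04 ± 0.08, and Eya4 had -0.13 ± 0.12 and -0.03 ± 0.11.

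**Figure D2:**
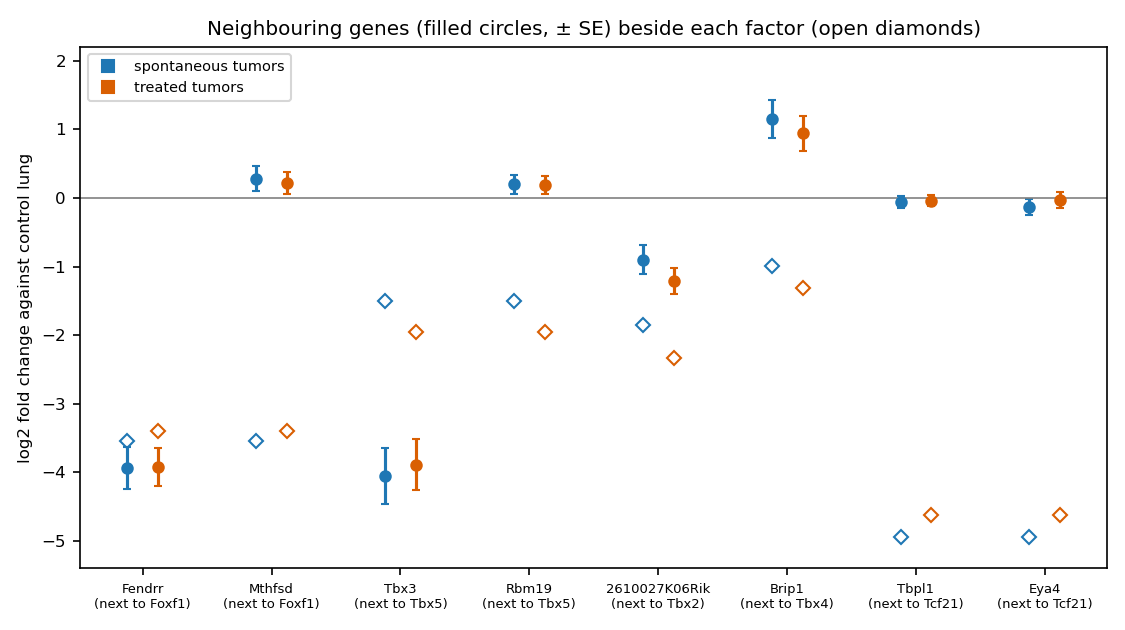
Log2 fold change against control lung (15 arrays) of the nearest measured genes beside Foxf1, Tbx5, Tbx2, Tbx4 and Tcf21 (filled circles ± SE), with that of the factor itself as an open diamond. Fendrr and Tbx3 lie near or below the diamonds of Foxf1 and Tbx5, while Mthfsd, Rbm19, Tbpl1 and Eya4 lie near 0 and Brip1 above it.

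Meox2 and Hoxa5 are homeobox factors. Meox2, known in muscle precursors and vascular cells, lies on chromosome 12 (37108540 to 37179534). It read 6.96, 8.11, 8.03, 7.55 and 7.78 in control lung, 5.17 to 5.94 in spontaneous tumors and 4.39 to 5.68 in treated tumors, without overlap. It fell by 2.19 ± 0.29 log2 in spontaneous tumors (4.56-fold, adjusted p = 4.2e-05 [-1.61, adjusted p = 0.0294]) and fell by 2.75 ± 0.26 in treated tumors (6.71-fold, adjusted p = 1.3e-06 [-2.37, adjusted p = 0.00104]). This probe set is of a kind that can bind more than 1 transcript. The more specific one gave differences of -2.12 ± 0.27 and -2.27 ± 0.24. Its relative Meox1 had 0.82 ± 0.30 and 0.47 ± 0.28 and did not pass (adjusted p = 0.0517 and 0.201). The nearest measured neighbours of Meox2 went opposite ways. Agmo, 62104 bases away, fell, at -1.09 ± 0.29 and -1.02 ± 0.26 (limma adjusted p = 0.0093 and 0.00595). Sostdc1, 790087 bases away, rose by 0.40 ± 0.11 and 0.28 ± 0.10 (limma adjusted p = 0.0119 and 0.0348).

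Hoxa5, which in the mouse is needed for tracheal and lung development, lies on chromosome 6 (52201754 to 52204587). It read 9.38, 8.99, 9.58, 9.05 and 8.84 in control lung. The spontaneous tumors lay close together, at 7.55 to 7.76, and the treated tumors at 6.94 to 7.95. Hoxa5 fell by 1.52 ± 0.19 log2 in spontaneous tumors (2.87-fold, adjusted p = 3.2e-05 [-1.60, adjusted p = 0.0166]) and fell by 1.78 ± 0.17 in treated tumors (3.43-fold, adjusted p = 1.9e-06 [-1.48, adjusted p = 0.0185]). Its second, more specific probe set gave larger differences of -2.30 ± 0.31 (4.93-fold lower) and -2.76 ± 0.28 (6.8-fold lower), so the size of the fall depends on the probe set by over 1.5 times.

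Of the 15 other Hox genes measured of 19 listed, 7 fell in spontaneous and 8 in treated tumors by limma and 0 rose. Their medians were -0.50 and -0.65 log2. Among all genes 12.9% and 15% fell, and 20.1% and 23.8% rose. Over 18 arrays 2 and 5 fell, where 3.19% and 4.44% of all genes did. Hox genes give cells their position along the body axis. Hoxb4 fell, at -1.93 ± 0.23 [-1.97] and -1.99 ± 0.21 [-1.95]. Hoxb5 fell, at -2.07 ± 0.30 [-1.68, adjusted p = 0.0658] and -2.38 ± 0.28 [-1.91], and Hoxa3 at -2.36 ± 0.40 [-1.93, adjusted p = 0.107] and -2.44 ± 0.36 [-1.74, adjusted p = 0.115]. Within the HoxA cluster the nearest measured genes had smaller values: Hoxa4, 10050 bases away, had -0.58 ± 0.24 (adjusted p = 0.0772) and -0.76 ± 0.22 (adjusted p = 0.0117), and Hoxa7, 11035 bases away, had -0.07 ± 0.12 and -0.23 ± 0.11 and did not pass.

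**Figure D3:**
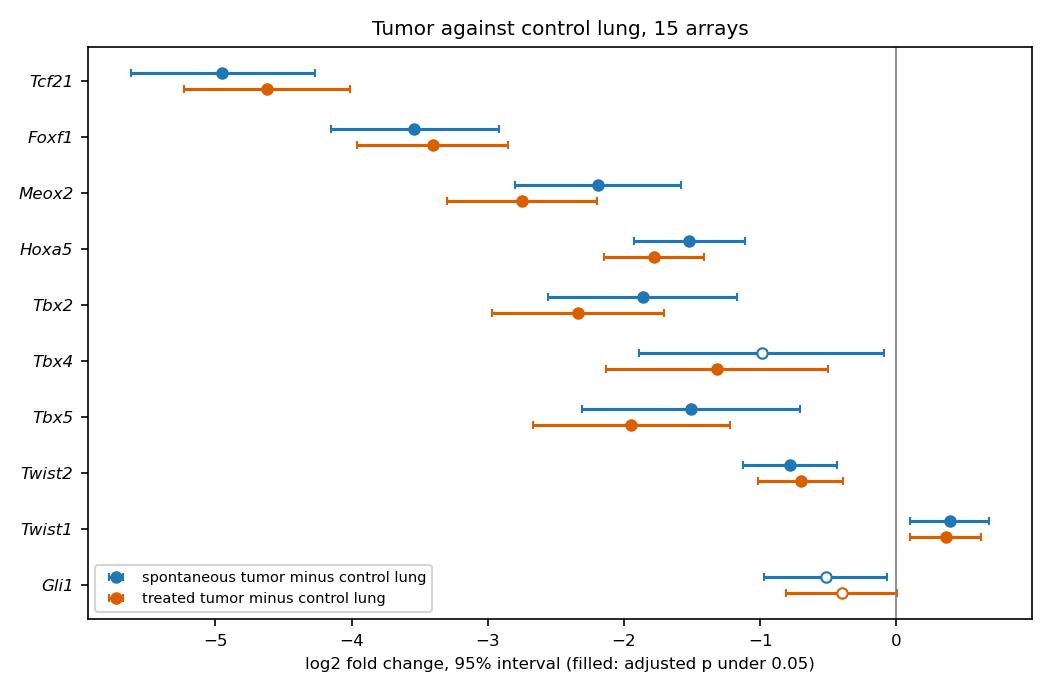
Log2 fold change of the 10 factors in spontaneous and treated tumors against control lung over 15 arrays, with 95% intervals; filled points have an adjusted p under 0.05. The values run from -4.95 for Tcf21 in spontaneous tumors to 0.39 for Twist1, and the intervals of both tumor groups overlap for every gene.

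The T-box genes Tbx2, Tbx4 and Tbx5 had smaller differences from control than Tcf21 and Foxf1, a contrast that was not tested, and larger SDs among tumors than among control lungs. Tbx2, which keeps embryonic lung fibroblasts dividing, lies on chromosome 11 (85832615 to 85841948). It read 9.28 to 9.88 in control lung. It read 7.52, 8.52, 8.15 and 6.99 in the spontaneous tumors and 7.77, 7.44, 7.90, 7.53, 7.03 and 6.26 in the treated tumors, below every control. Tbx2 fell by 1.86 ± 0.33 log2 (3.64-fold, adjusted p = 5.3e-04 [-1.75, adjusted p = 0.147]) and fell by 2.34 ± 0.30 (5.05-fold, adjusted p = 2.2e-05 [-1.74, adjusted p = 0.108]), calls that did not hold over 18 arrays.

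Tbx5, a regulator of lung specification and of the heart, lies on chromosome 5 (119796514 to 119885220). It read 8.78 to 9.55 in control lung. The spontaneous tumors read 7.64, 8.21, 7.86 and 6.85 and the treated tumors 5.94 to 8.18, without overlap with the controls. It fell by 1.51 ± 0.38 (2.84-fold, adjusted p = 0.00646 [-1.15, adjusted p = 0.106]) and fell by 1.95 ± 0.34 (3.85-fold, adjusted p = 3.6e-04 [-1.80, adjusted p = 0.00435]). Its second probe set gave -0.66 ± 0.33 (1.58-fold lower, adjusted p = 0.143 over all probe sets) in spontaneous tumors and a 2.01-fold lower level in treated ones (adjusted p = 0.0152), with overlap in both. Heart muscle markers were used to stand for the muscle sleeve of pulmonary veins in mouse lung. Their mean was 6.08 to 6.88 in control lung, 5.39 to 5.65 in spontaneous and 5.37 to 5.73 in treated tumors. In each tumor group 3 of 8 fell and 1 rose, where 12.9% and 15% of all genes fell and 20.1% and 23.8% rose. The median difference of the list was near 0, at -0.11 and -0.01, and its lowest value was that of Actc1, at -6.06 ± 0.25 and -6.41 ± 0.23. The marker that rose was Myh6, by 1.49 ± 0.51 [1.30, adjusted p = 0.292] and 1.83 ± 0.46 [1.36, adjusted p = 0.181], without overlap (limma adjusted p = 0.0357 and 0.00542). Myl7, Myl4, Nppa and Sln did not pass in either comparison. In control lung Myh6, Myl7 and Sln had low means of 4.42, 4.65 and 4.15 log2. Whether values this low differ from background signal, and could fall further, was not tested. The part of these heart muscle markers in the Tbx5 result was not tested.

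Tbx4, the lung and hindlimb T-box gene, lies on chromosome 11 (85886367 to 85916097). It read 9.46, 9.92, 9.49, 9.66 and 9.73 in control lung. The spontaneous tumors read 8.24, 9.53, 9.23 and 7.66, so that 1 reached into the control range, and its difference of -0.99 ± 0.42 did not pass the test (adjusted p = 0.0863 [-1.33, adjusted p = 0.252]). Without spontaneous 2 it was -1.28 ± 0.44 and passed (adjusted p = 0.0382). Tbx4 fell by 1.32 ± 0.38 in treated tumors (2.49-fold, adjusted p = 0.0127 [-0.98, adjusted p = 0.363]), whose highest value was 9.34. The other Tbx4 probe set was called in both comparisons, at -1.25 ± 0.35 and -1.42 ± 0.32 (adjusted p = 0.013 and 0.00232 over all probe sets), without overlap.

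The 3 T-box genes shared most, but not all, of their extreme tumors. Spontaneous 2 was the highest and spontaneous 4 the lowest of its group for Tbx2, Tbx4 and Tbx5 alike. Among treated tumors, replicate 6 was the lowest for each of them, at 6.26, 7.16 and 5.94. The highest treated tumor was replicate 3 for Tbx2 and Tbx4, at 7.90 and 9.34, but replicate 1 for Tbx5, at 8.18 against 7.81 on replicate 3. After each group's mean was taken off, the values of Tbx2 and Tbx4 over the 15 arrays had a Pearson r of 0.92, those of Tbx2 and Tbx5 0.91 and those of Tbx4 and Tbx5 0.89. These are descriptions, since the arrays share their processing. Tbx2 and Tbx4 are neighbours, 44418 bases apart, while Tbx5 is on another chromosome. Across all 10 factors these were the 3 highest of the 45 pairs.

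**Figure D4:**
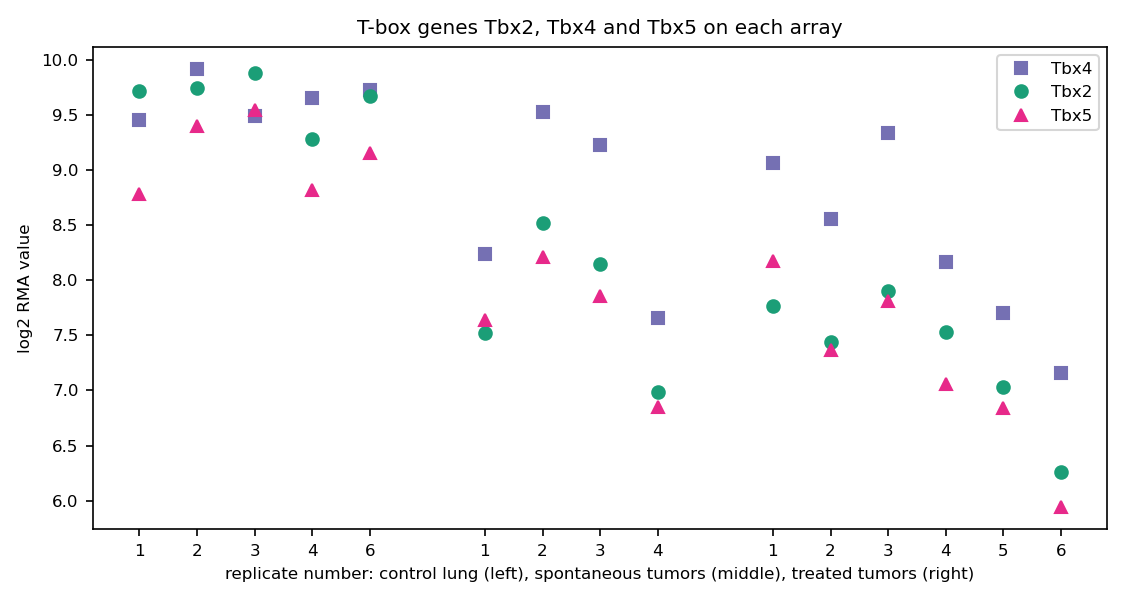
Log2 RMA value of Tbx2 (circles), Tbx4 (squares) and Tbx5 (triangles) on each of the 15 arrays, by group and replicate number; heights are compared within a gene, not between genes. All 3 genes are highest on spontaneous 2 and lowest on spontaneous 4 and treated 6 of their groups, while the highest treated array is replicate 3 for Tbx2 and Tbx4 and replicate 1 for Tbx5.

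Genes beside the T-box members behaved differently from each other. Tbx3, 111789 bases from Tbx5 and a partner of Tbx2 in embryonic lung mesenchyme, read 9.64 to 10.89 in control lung, 5.56 to 6.91 in spontaneous and 5.60 to 7.72 in treated tumors. It fell, at -4.05 ± 0.41 [-3.14] and -3.89 ± 0.37 [-3.34] log2, or 16.5-fold and 14.8-fold (adjusted p = 3.8e-06 [0.00366] and 1.3e-06 [0.00117]). The gene 2610027K06Rik, 226 bases from Tbx2, fell, at -0.90 ± 0.21 [-0.72, adjusted p = 0.407] and -1.21 ± 0.19 [-1.45, adjusted p = 0.0167]. Whether its probes and those of Tbx2 read the same transcripts was not tested. Brip1, a DNA repair helicase 142038 bases beyond Tbx4, rose by 1.15 ± 0.28 and 0.94 ± 0.25 (adjusted p = 0.00503 and 0.00707).

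Of 10 other T-box genes measured of 11 listed, 2 fell and 1 rose in each comparison. Among all genes 12.9% and 15% fell, and 20.1% and 23.8% rose. The T-box genes that fell were Tbx3 and the T cell factor Tbx21, at -1.23 ± 0.35 [-0.48, adjusted p = 0.786] and -1.72 ± 0.32 [-1.81, adjusted p = 0.0467]. The T-box gene that rose was Tbx15, a factor of limb and skeletal development. It read 4.55 to 5.12 in control lung, 6.92 to 8.67 in spontaneous and 4.80 to 8.32 in treated tumors. Its rise was 3.32 ± 0.55 [2.78, adjusted p = 0.0108] in spontaneous tumors (9.96-fold, adjusted p = 3.2e-04) and 1.35 ± 0.50 [0.80, adjusted p = 0.542] in treated ones (adjusted p = 0.0413), where the values overlapped with controls. The difference between both tumor groups, -1.96 ± 0.53, did not pass (adjusted p = 0.261).

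Gli1, the Hedgehog-induced zinc finger factor, lies on chromosome 10 (127329882 to 127341579), where its annotation overlaps that of Arhgap9, which did not pass in either comparison. It read 5.57 to 6.26 in control lung, 5.05 to 5.69 in spontaneous and 5.05 to 6.16 in treated tumors, and tumor and control values overlapped. Its differences of -0.52 ± 0.21 (adjusted p = 0.0705 [-0.15, adjusted p = 0.893]) and -0.40 ± 0.19 (adjusted p = 0.107 [-0.54, adjusted p = 0.46]) did not pass. The first passed without control 1 or without treated 3 (adjusted p = 0.0421 and 0.0444), and the second passed without treated 3 (adjusted p = 0.0294). Gli1 means over the arrays kept exceeded those of 31.1% (control), 24.5% (spontaneous) and 26.2% (treated) of the probe sets with 1 gene symbol. Whether such values differ from background signal was not tested.

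Of 15 other Hedgehog pathway genes measured of 16 listed, 4 fell and 3 rose in spontaneous tumors, and 4 fell and 4 rose in treated tumors. As shares these rises were near the 20.1% and 23.8% of all genes that rose. Over 18 arrays 2 fell and 0 rose, and 3 fell and 1 rose, where 3.19% and 4.44% of all genes fell and 0.973% and 2.98% rose. Over 15 arrays the 4 that fell in each tumor group were Hhip, Boc, Gas1 and Ptch1, where 12.9% and 15% of all genes fell. Hhip, the inhibitor that Hedgehog signalling induces, read 7.61 to 8.62 in control lung, 5.01 to 5.70 in spontaneous and 5.31 to 6.02 in treated tumors. It fell, at -2.45 ± 0.21 [-1.82, adjusted p = 0.0378] and -2.40 ± 0.19 [-2.60, adjusted p = 0.0019] (adjusted p = 9.0e-07 and 2.3e-07). The co-receptor Boc fell, at -1.99 ± 0.20 [-0.96, adjusted p = 0.388] and -2.17 ± 0.18 [-1.85, adjusted p = 0.019], and the co-receptor Gas1 at -2.86 ± 0.60 [-2.38, adjusted p = 0.0156] and -2.16 ± 0.54 [-1.87, adjusted p = 0.0449]. The receptor and target Ptch1 fell, at -0.90 ± 0.16 [-1.67, adjusted p = 0.417] and -0.47 ± 0.14 [0.18, adjusted p = 0.904].

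On the sending side, Hhat, which attaches the lipid to Hedgehog proteins, rose by 1.85 ± 0.38 [1.40, adjusted p = 0.151] and 2.53 ± 0.34 [2.08, adjusted p = 0.0128]. Disp1, which releases the ligand, rose by 0.97 ± 0.18 [0.65, adjusted p = 0.406] and 1.15 ± 0.16 [0.84, adjusted p = 0.153]. The ligand Shh rose by 1.19 ± 0.37 in treated tumors (adjusted p = 0.0198 [1.32, adjusted p = 0.205]) and had 0.62 ± 0.41 in spontaneous ones (adjusted p = 0.272). Within the cell, the inhibitor Sufu rose by 0.93 ± 0.16 [0.39, adjusted p = 0.794] and 0.73 ± 0.14 [0.95, adjusted p = 0.276]. Smo, Kif7, Cdon, Ihh, Dhh, Gli2 and Gli3 did not pass in either comparison.

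**Figure D5:**
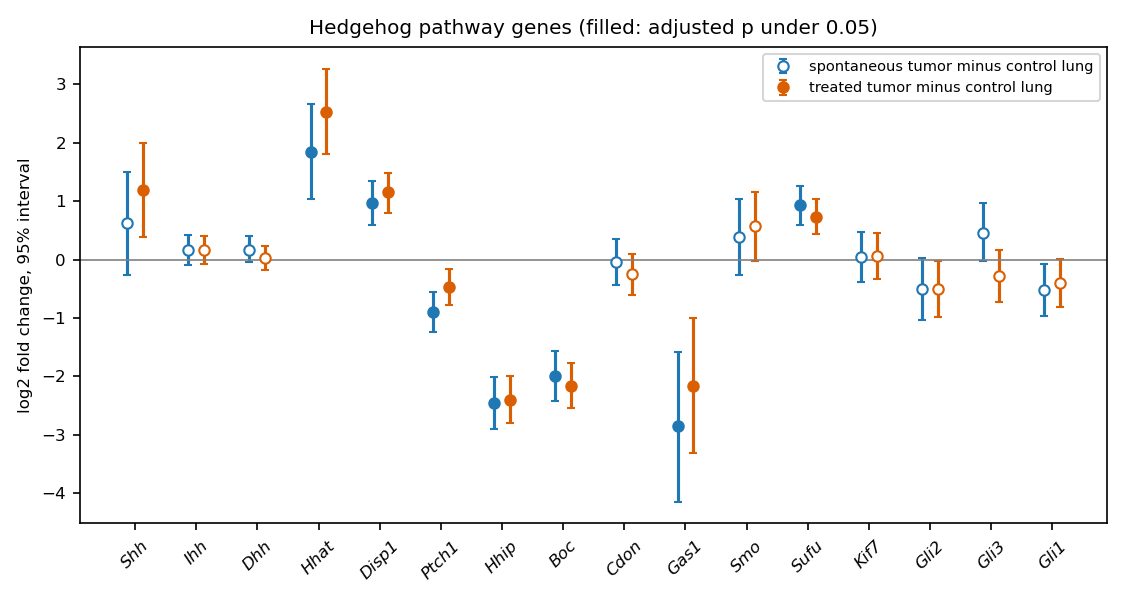
Log2 fold change of 15 Hedgehog pathway genes and Gli1 in spontaneous and treated tumors against control lung over 15 arrays, with 95% intervals; filled points have an adjusted p under 0.05. Hhip, Boc and Gas1 lie near -2 or lower, Hhat and Disp1 above 0, and Gli1 has no filled point.

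Treated and spontaneous tumors were compared directly to ask whether these factors differ with exposure. By limma 0 of 10 passed at an adjusted p under 0.05 over 15 arrays, where 0.0550% of all genes passed, and 0 of 10 over 18 arrays. Over 15 arrays the smallest unadjusted limma p among the 10 factors was 0.0615, that of Meox2. The share of all genes with an unadjusted p under 0.05 was not counted. The largest difference among the 10 factors was also that of Meox2, at -0.56 ± 0.28 (95% interval -1.14 to 0.03, adjusted p = 0.603 [-0.76]). Tcf21 had 0.33 ± 0.30 (-0.32 to 0.97) and Foxf1 0.13 ± 0.28 (-0.46 to 0.73). Tbx2, Tbx5 and Tbx4 had -0.47 (-1.14 to 0.20), -0.44 (-1.21 to 0.33) and -0.33 (-1.20 to 0.54). Hoxa5 had -0.26 (-0.65 to 0.14), Gli1 0.11 (-0.32 to 0.55), Twist2 0.08 (-0.25 to 0.42) and Twist1 -0.03 (-0.31 to 0.24). Differences of up to about 1.21 log2 remain inside these intervals for the T-box genes, so similarity of both tumor groups is not shown.

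Tumors of 1 group differed among themselves in the mean of the 10 factors. Among treated tumors that mean was highest in replicate 3, at 6.88 log2, and lowest in replicate 6, at 5.66. Replicate 3 was the highest of the group for 6 of the 10 factors (Tcf21, Tbx2, Tbx4, Foxf1, Twist1 and Gli1), and replicate 6 the lowest for 6 (Tcf21, Tbx2, Tbx4, Tbx5, Foxf1 and Hoxa5). Among spontaneous tumors replicate 2 was the highest for 6 factors and replicate 4 the lowest for 6. Control lungs had a mean of 8.08 to 8.43.

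Mean levels of fibroblast, endothelial and smooth muscle markers were lower in every tumor kept than in every control lung kept. Fibroblast markers, all 12 measured, had a mean of 10.24 to 10.92 in control lung, 8.04 to 9.13 in spontaneous and 7.77 to 9.31 in treated tumors, and 8 of 12 fell in each tumor group [4 and 4]. The 1 fibroblast marker that rose, in treated tumors, was the collagen gene Col1a1, at 0.81 ± 0.30 (adjusted p = 0.0456 [1.52, adjusted p = 0.344]). Endothelial markers averaged 10.84 to 11.63, 8.36 to 9.33 and 8.13 to 9.29, and 9 and 12 of 12 fell [4 and 4]. Smooth muscle markers averaged 8.84 to 10.50, 7.05 to 7.76 and 6.91 to 7.80, and 8 of 8 fell in each [4 and 5]. Counts in brackets are over 18 arrays. Among all genes 12.9% and 15% fell over 15 arrays, and 3.19% and 4.44% over 18. Among treated tumors, replicate 3 had the highest and replicate 6 the lowest mean of both the fibroblast markers (9.31 and 7.77) and the endothelial markers (9.29 and 8.13), but the smooth muscle mean was 7.17 on replicate 3 and 7.35 on replicate 6. Among spontaneous tumors replicate 2 had the highest mean of all 3 lists. The lowest was replicate 4 for fibroblast, replicate 1 for endothelial (8.36) and replicate 3 for smooth muscle markers (7.05). The part of these cells in the falls of the factors was not tested. Median differences were -1.63 and -1.56 for the fibroblast list, -2.21 and -2.40 for the endothelial and -2.27 and -2.43 for the smooth muscle list. Those of the 10 factors were -1.51 and -1.86.

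Growth factors exchanged between lung mesenchyme and the layers beside it, and related receptors, also fell more often than they rose. Of 13 genes listed, 7 fell, 1 rose and 5 did not pass in each tumor group, with medians of -0.54 and -0.63 log2. Among all genes 12.9% and 15% fell, and 20.1% and 23.8% rose. Fgf7, a fibroblast growth factor for epithelium, fell, at -3.77 ± 0.33 [-3.09] and -3.63 ± 0.29 [-3.20], and the Wnt enhancer Rspo1, also a mesothelial gene, at -3.23 ± 0.26 [-3.16] and -3.36 ± 0.23 [-3.67]. Wnt2, which specifies the lung in the embryo, fell, at -2.02 ± 0.25 [-1.01, adjusted p = 0.398] and -1.83 ± 0.22 [-1.74, adjusted p = 0.039]. Fgf10, the main branching signal, fell, at -0.94 ± 0.14 [-0.66, adjusted p = 0.45] and -1.07 ± 0.13 [-1.28, adjusted p = 0.0301]. Over 18 arrays 3 and 4 of the 13 fell and 0 rose, where 3.19% and 4.44% of all genes fell and 0.973% and 2.98% rose.

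Other transcription factors of mesenchyme also fell more often than they rose. Of 20 measured of 22 listed, 11 fell, 1 rose and 8 did not pass in spontaneous tumors. In treated tumors 13 fell, 0 rose and 7 did not pass. Among all genes 12.9% and 15% fell, and 20.1% and 23.8% rose. Over 18 arrays 4 and 7 fell, where 3.19% and 4.44% of all genes did. Besides Tbx3, the homeobox factor Meis1 fell, at -3.09 ± 0.22 [-2.52] and -2.98 ± 0.20 [-2.90], and the repressor Zeb1 at -2.43 ± 0.26 [-2.42, adjusted p = 0.0716] and -2.69 ± 0.24 [-1.90, adjusted p = 0.141]. The nuclear receptor Nr2f1 fell, at -3.05 ± 0.43 [-2.76] and -2.57 ± 0.38 [-2.42]. The 1 gene that rose, in spontaneous tumors, was the forkhead gene Foxl1, at 0.38 ± 0.14 (adjusted p = 0.0494 [0.43, adjusted p = 0.734]); it was picked for mention after its value was seen.

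Genes with the most similar pattern over the 15 arrays were found for the 5 factors whose mean was above the median of all genes. For Foxf1 they were She, Slc7a10 and Sgip1 (Pearson r 0.99 each), for Hoxa5 Fgd5 (0.99), Sema3g and She (0.98 each) and for Tbx2 Fxyd1, Slc43a3 and Pcolce2 (0.98 each). For Tbx5 they were Pde5a (0.98), Gulp1 (0.98) and Lhfp (0.97), and for Tbx4 Clip3 (0.95), Pde5a (0.94) and the forkhead gene Foxf2 (0.93). These values include the difference between tumor and control that the arrays share. After each group's mean was taken off they were 0.80 to 0.95. She was thus among the 3 for both Foxf1 and Hoxa5, and Pde5a for both Tbx4 and Tbx5.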

How the data were processed

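RNA of lung and lung tumors was measured on Affymetrix mouse arrays after 3-prime amplification, per the labels' protocols. The deposited values are on a log2 scale and come from RMA, per the submitters' processing notes; RMA in general corrects background, normalizes arrays together and summarizes probe sets, and its version is not given in the sources used here. They were used without further normalization. Samples were grouped by their titles, and control 5, spontaneous 5 and spontaneous 6 were left out. Of 45101 probe sets, 34945 carried 1 gene symbol; symbols were updated through the RefSeq table of GRCm38.p6. Per gene, the probe set with the highest mean over 15 arrays was kept, which left 18193 genes. Some listed genes were not analysed here.

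The 3 groups were compared in 1 model with limma 3.58.1 (R 4.3.3), with 1 mean per group, moderated tests and Benjamini-Hochberg adjustment over all genes. Exact two-sided permutation tests used SciPy 1.17.1; with groups that do not overlap the exact p was 0.0159 for 5 against 4 arrays and 0.00433 for 5 against 6, the smallest possible values. The code was tested on simulated data. The number of arrays limits the precision. The members, lists and tests were chosen with earlier results of these data known. Named genes were all members, up to 4 genes per list and comparison with the smallest p, all Hedgehog pathway genes, the 3 genes most like each member with a mean above 7.642, the median of all genes, and nearest measured neighbours. A few others are named to say which members of a list did not pass. Inhbe beside Gli1 and the neighbours of Twist1 and Twist2 did not pass against control and are not described. Alternatives were those listed in the closing section.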

Additional observations from a re-analysis of the deposited data

How the results depend on the processing

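The counts of factors lower than control, 7 in spontaneous and 8 in treated tumors, stayed within 1.5 times under quantile normalization, median centring, averaging of probe sets, testing each probe set, trend and robust variances, 2 groups per fit, the actin 3-prime minus 5-prime covariate, array weights over 18 arrays, the replicate block and, chosen after the data were seen, without probe sets that can bind several transcripts. They became 4 and 5 over all 18 arrays, where 3.19% and 4.44% of all genes fell. With genes below the median left out they became 4 and 5, where 1223 and 1387 of 9097 genes fell. That setting removes Tcf21, Meox2, Twist1, Twist2 and Gli1 by construction. For a fold change of at least 2 they became 3 and 5, where 489 and 589 of 18193 genes fell. The count of 1 factor higher, Twist1, became 0 in both comparisons under those 3 settings, and 0 in spontaneous tumors with the replicate number as a block, which changed 1 further call of a factor, that of Tbx4 in spontaneous tumors (-1.14, adjusted p = 0.0424). Of 13 same-numbered pairs of arrays, 2 had a correlation of deviations above 0.1 (range -0.149 to 0.298). Arrays with different numbers were not compared in this way, so whether replicate numbers mark pairs is not settled. With 1 array left out, 7 to 8 and 8 to 9 factors were lower and 0 to 1 higher in each. No factor was called between treated and spontaneous tumors under any setting.

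Twist1 reversed to -0.18 in treated tumors over 18 arrays. No other difference of the 10 factors from control changed sign. Between treated and spontaneous tumors, where no difference passed, the sign turned over 18 arrays for Tbx2 (0.01), Tbx4 (0.35), Hoxa5 (0.12), Twist2 (-0.52) and Gli1 (-0.39), with array weights for Gli1 (-0.01), with the replicate block for Twist1 (0.03) and with the actin covariate for Twist2 (-0.12). With 1 array left out it turned for Foxf1 (-0.04 without treated 3, range to 0.34), Twist1 (0.01 without treated 5 and 0.05 without spontaneous 3, range from -0.16), Twist2 (-0.05 without spontaneous 1, range to 0.20) and Gli1 (-0.0015 without treated 3 and -0.02 without spontaneous 1, range to 0.22). The cause was not tested. Of all genes, limma called 6012, 7065 and 10 in the 3 comparisons over 15 arrays, 757, 1350 and 0 over 18, 648, 817 and 0 for a fold change of at least 2, and 4004, 4658 and 9 without genes below the median. Between treated and spontaneous tumors it called 37 with array weights, 27 with the actin covariate, 5 with quantile normalization or trend and robust variances, 0 with the block or 2 groups per fit, and 0 to 28 with 1 array left out. The precision is limited by 4 to 6 arrays per group.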

Other observations

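Pericyte markers were chosen for mention after their values were seen. Of 8 measured, 3 fell and 1 rose in spontaneous and 4 fell and 1 rose in treated tumors, with medians of -0.71 and -0.45 log2. Among all genes 12.9% and 15% fell, and 20.1% and 23.8% rose. Over 18 arrays 1 fell in each and 0 and 1 rose, where 3.19% and 4.44% of all genes fell and 0.973% and 2.98% rose. The pericyte marker that rose was Rgs5, a regulator of G protein signalling in pericytes. It read 6.67 to 8.43 in control lung, 10.45 to 11.39 in spontaneous and 10.79 to 11.52 in treated tumors, without overlap. Its rise was 3.24 ± 0.30 [2.09, adjusted p = 0.0538] and 3.65 ± 0.27 [3.62, adjusted p = 6.5e-04] log2 (limma adjusted p = 1.7e-06 and 1.3e-07). Among those that fell, Notch3 had -1.23 ± 0.19 and -1.70 ± 0.17, Cox4i2 -1.33 ± 0.17 and -1.36 ± 0.15, and Higd1b -1.03 ± 0.26 and -0.70 ± 0.24, and Cspg4 fell in treated tumors, at -0.64 ± 0.17, while Pdgfrb had -0.24 ± 0.23 and -0.25 ± 0.21 and did not pass. Bmp4, a growth factor of lung mesenchyme and epithelium and the 1 gene of the 13 growth factor and receptor genes that rose, had 1.20 ± 0.20 (adjusted p = 3.6e-04 [0.46, adjusted p = 0.878]) and 1.29 ± 0.18 (adjusted p = 5.5e-05 [2.06, adjusted p = 0.225]).

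The genes most like Tcf21 over the 15 arrays, also named after their values were seen, were Mfap4, a microfibril protein, Ptprb, a phosphatase of endothelium, and Chrdl1, a BMP antagonist (Pearson r 0.99 each). After each group's mean was taken off, r was 0.79, 0.76 and 0.68.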
